A study of Mus musculus with 6 samples.

Results

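The complement genes described here are 9 rows of the count table, taken by their symbols, out of 23478 genes in all. They are 5 components of the cascade (Hc, which encodes complement C5, and C3, C2, C4b and Cfb) and 4 regulators (Cfi, Cd55, Cd59a and Serping1). All 9 passed the filter on low counts, which kept 14477 genes. RNA was sequenced from alveolar type 2 (AT2) cells, the surfactant-making epithelial cells of the lung, purified from adult mice of mixed strain background by depleting other cells. The 3 Abca3 cKO libraries came from mice with a conditional deletion of Abca3, the lipid transporter of the lamellar body, and the 3 control libraries from mice labelled as controls. Both groups were adults that received tamoxifen and were placed by the series at 6 days after it, though the treatment label can be read as 6 days of dosing. The labels name neither the Cre driver, the deleted exons nor the alleles of the controls, and whether each replicate is its own animal is not stated, so p-values cover only the spread between these libraries.

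Complement is a cascade of plasma and cell-surface proteins in which the classical, lectin and alternative routes meet at the cleavage of C3, and C5 is cut next to start the membrane attack complex and to release a peptide that attracts leukocytes. C2 and factor B supply the protease of the enzymes that cut C3, and complement C4 anchors the classical and lectin one. Liver makes most of the circulating protein, and AT2 cells of rat and human lung are known to make several components locally.

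Totals ran from 23531330 to 26071229 counts per library. Abca3 itself stood at 571, 611 and 606 CPM (counts scaled to a common library size, on library sizes scaled by TMM, as are all CPM here) in Abca3 cKO and at 635, 694 and 689 CPM in controls, with a log2 fold change of −0.17 (edgeR adjusted p = 0.696). A count over the whole gene need not show a deletion of some exons, so this does not check the labels. Control replicate 2 stood apart in Xist, the RNA of the inactive X chromosome, at 2345 CPM against 5.36 to 9.36 CPM in the other libraries. The AT2 label was matched by its markers: the 10 genes of that list summed to 65673 to 85310 CPM, among them the phosphate transporter gene Slc34a2 and the surfactant gene Sftpc. The 5 club cell markers summed to 52407 to 82666 CPM, most of it the secretory gene Scgb1a1. Their sum exceeded that of the AT2 list in Abca3 cKO replicate 1 (82666 against 73677 CPM), control replicate 1 (74140 against 65673 CPM) and control replicate 2 (81788 against 70057 CPM).

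The promoters of Hc, C3 and Cd55 are shown because these 3 genes had the smallest p-values among the 9. RefSeq's promoter table for GRCm38.p6 held 4 of the 9 genes. The sequences run 5′ to 3′ on the gene's strand and end at the base before the outermost annotated start, so that of Hc is cut to 224 bases because GENCODE places its start further upstream than RefSeq, and capitals mark matches to the motifs searched.
Hc, chr2:35061439-35061662, minus strand: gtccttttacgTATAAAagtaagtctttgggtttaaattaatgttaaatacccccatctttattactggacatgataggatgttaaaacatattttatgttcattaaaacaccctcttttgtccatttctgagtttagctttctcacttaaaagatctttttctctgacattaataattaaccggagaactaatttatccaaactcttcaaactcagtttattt
C3, chr17:57228137-57228386, minus strand: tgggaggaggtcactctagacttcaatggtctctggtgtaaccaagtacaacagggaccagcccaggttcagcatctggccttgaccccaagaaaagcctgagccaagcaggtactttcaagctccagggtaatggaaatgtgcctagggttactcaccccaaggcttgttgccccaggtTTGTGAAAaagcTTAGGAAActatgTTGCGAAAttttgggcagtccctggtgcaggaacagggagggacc
Cd55, chr1:130462745-130462994, minus strand: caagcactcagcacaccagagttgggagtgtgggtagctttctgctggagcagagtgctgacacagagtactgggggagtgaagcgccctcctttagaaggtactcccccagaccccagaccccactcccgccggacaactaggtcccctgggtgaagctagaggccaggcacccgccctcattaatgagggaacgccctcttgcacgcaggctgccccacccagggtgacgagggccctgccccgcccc
Searched on both strands over 250 bases before the RefSeq start were 4 motifs: the TATA box as TATAAA, C/EBP as TTNNGNAA, STAT as TTCNNNGAA and the NF-kB consensus by its usual letters. No matched stretch overlapped that of another motif. The C3 promoter held 3 C/EBP matches in a row, beginning 70, 58 and 45 bases before the start site, of which the last matched on both strands. At least 1 C/EBP match was found in 36.8% of all 32851 promoters of this length, and 3 or more in 2.61%. Hc held 1 TATA match, 239 bases before the RefSeq start, and 12.4% of promoters held one somewhere in the window. Neither STAT letters (7.02% of promoters) nor NF-kB letters (7.25%) were found in the windows of Hc, C3 or Cd55, and Cd55 held no match to any of the 4. The promoters differed in base composition, with 29% G and C in the printed stretch of Hc, 52% in C3 and 64% in Cd55. A match describes these letters and does not show binding.

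Ordered by level per transcript length, the 9 genes fell into a high, a middle and a very low tier. In the deposited RPKM (read numbers per unit of transcript length and of sequencing depth), C3 and Hc led in controls, C3 at 212 ± 27.7 RPKM and Hc at 179 ± 12.7 RPKM (SD, n = 3, as for every SD here), which ranked them 114 and 140 among 23444 genes. Their library ranges touched, 187 to 242 RPKM for C3 and 165 to 187 RPKM for Hc, so the order of the pair was not resolved. Serping1, which encodes the C1 inhibitor that inactivates the first proteases of the classical and lectin routes, came next at 127 ± 10.3 RPKM. Its range lay apart from that of Hc above it and of Cd55 below it. Cd55, the surface protein that speeds the decay of the C3-cutting enzymes, stood at 30.5 ± 4.18 RPKM.

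The middle tier could not be ordered within itself. C4b, one of the mouse genes for complement C4, stood at 18.2 ± 8.07 RPKM in controls. Cd59a, which encodes the membrane protein that blocks the membrane attack complex, was at 12.8 ± 5.92 RPKM. Cfb (factor B) followed at 11.2 ± 1.75 RPKM and C2 at 8.26 ± 1.35 RPKM, and each of these overlapped its neighbour in the order. Cfi, which encodes the protease factor I that degrades activated C3 and C4, was last at 0.344 ± 0.151 RPKM, apart from C2. The same genes held the first 5 places and the last in Abca3 cKO, where Cfb and C2 lay above Cd59a. In total the 9 genes took 0.497% to 0.587% of all counts in control libraries and 0.593% to 0.803% in Abca3 cKO libraries, most of it Hc and C3.

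**Figure D1:**
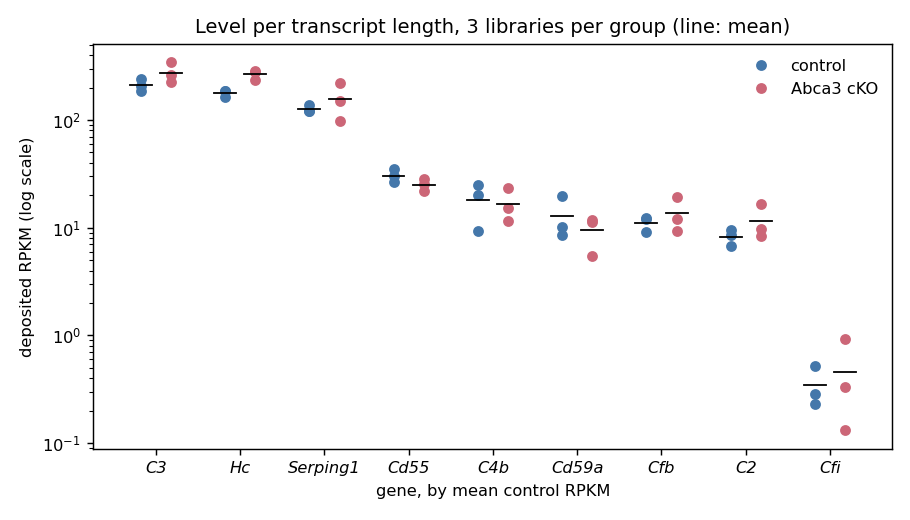
Deposited RPKM (log axis) of each complement gene in the 3 control and 3 Abca3 cKO libraries, with genes ordered by mean control level and a line at each group's mean. C3, Hc and Serping1 lie at 98.7 RPKM or more, Cd55, C4b, Cd59a, Cfb and C2 lie between 5.43 and 34.8 RPKM, and Cfi lies under 1 RPKM.

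None of the 9 genes passed an adjusted p of 0.05 by edgeR's quasi-likelihood test, where 0.38% of the 14477 genes tested did (55 genes). At an unadjusted p under 0.05 there were 3, beside 9.23% of all genes. Hc and C3 had higher levels in Abca3 cKO (5.07% of all genes) and Cd55 lower (4.16%). DESeq2 called 1, Hc, where it called 1.67% of the genes to which it gave an adjusted p. The log2 fold change was above 0 in 6 of the 9, beside 7277 of all 14477 genes tested. Its median over the 9 was 0.34, beside 0.0018 over all genes tested. That median was −0.04 without Abca3 cKO replicate 1. Members of 1 cascade in the same libraries are not independent of each other, so these counts describe the list only. The count of 55 itself moved with single libraries: leaving out Abca3 cKO replicate 1 gave 26, leaving out Abca3 cKO replicate 2 gave 27, and leaving out control replicate 1 gave 21.

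Hc (chr2:34983331-35061438, minus strand, GRCm38) had the smallest p of the 9. It stood at 3590, 3720 and 2992 CPM in Abca3 cKO replicates 1, 2 and 3 and at 2491, 2172 and 2458 CPM in the control replicates. Every Abca3 cKO library lay above every control library, as in 7.34% of all genes tested. The means were 3434 ± 389 CPM and 2374 ± 175 CPM, a ratio of 1.45 (95% interval 1.20 to 1.75; log2 fold change 0.53, SE 0.126). It ranked 109 among 14477 genes by p and did not pass edgeR's adjusted threshold (adjusted p = 0.111). DESeq2 gave it an adjusted p of 0.00298, and edgeR without the filter on low counts an adjusted p of 0.0357. Leaving out 1 library at a time gave log2 fold changes from 0.47 to 0.62 and edgeR adjusted p from 0.0944 to 0.318. Of its exon bases 1.21% are shared with the antisense gene Gm13449.

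C3 (chr17:57203970-57228136, minus strand), the component on which all routes meet, had a smaller fold change and a wider spread. Its levels were 3116, 2470 and 2030 CPM in Abca3 cKO and 2201, 1923 and 1614 CPM in controls. The groups overlapped, since Abca3 cKO replicate 3 lay below control replicate 1. The ratio was 1.33 (95% interval 1.04 to 1.69), with a log2 fold change of 0.41 (SE 0.162, edgeR adjusted p = 0.433). Without Abca3 cKO replicate 1 the log2 fold change was 0.23. Within a library the ratio of C3 to Hc in CPM ran from 0.664 to 0.868 in Abca3 cKO and from 0.657 to 0.885 in controls, so it spanned nearly the same range in the groups.

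C2 and Cfb are neighbouring genes on chromosome 17 that encode related proteases, C2 acting in the classical and lectin routes and Cfb in the alternative one. C2 (chr17:34862604-34898265) stood at 68.9, 43.1 and 34.3 CPM in Abca3 cKO and at 39.4, 37.1 and 27.0 CPM in controls. Cfb (chr17:34856374-34862518) stood at 90.3, 50.02 and 57.7 CPM against 61.3, 59.0 and 46.1 CPM. For each, Abca3 cKO replicate 1 was the highest of the 6 libraries and the others overlapped between groups. Their log2 fold changes were 0.50 (SE 0.245, edgeR adjusted p = 0.604) and 0.25 (SE 0.205, adjusted p = 0.800). Without Abca3 cKO replicate 1 these became 0.16 and −0.04. The annotated gene Gm20547 covers 42.8% of the exon bases of C2 and 79.5% of those of Cfb on the same strand. Reads of the pair may thus be split with it or between them. On the opposite strand Zbtb12 shares 4.16% of the exon bases of C2.

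C4b (chr17:34728380-34743882) was the most variable component. Its levels were 289, 148 and 185 CPM in Abca3 cKO and 263, 314 and 110 CPM in controls. The lowest and the highest of the 6 libraries were both controls, replicates 3 and 2. The log2 fold change was −0.15 with a 95% interval of the ratio from 0.366 to 2.23 (edgeR adjusted p = 0.969), and its sign turned without Abca3 cKO replicate 2 (0.05) or control replicate 2 (0.15). Its near copy C4a, known in mice as a sex-limited form of C4, moved with it: the ratio of C4b to C4a stayed between 4.64 and 5.08 in the 6 libraries while C4a ran from 23.8 to 61.9 CPM. Of the 50-base stretches in annotated C4b transcripts, 34.6% also occur in C4a, so counts of the pair are uncertain where reads fit both.

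Among the regulators, Cd55 (chr1:130439027-130462744, minus strand) had the smallest p, with lower levels in Abca3 cKO. It stood at 234, 219 and 254 CPM in Abca3 cKO and at 334, 283 and 264 CPM in controls. The groups did not overlap, as in 6.76% of all genes tested in that direction, with 254 against 264 CPM at the nearest. The ratio was 0.803 (95% interval 0.672 to 0.959; log2 fold change −0.32, SE 0.120, edgeR adjusted p = 0.395). Its sign held in each of the 14 alternative analyses, and the adjusted p ran from 0.286 to 1 across them. Its near copy Cd55b, listed as Daf2, was at 19.2 to 20.4 CPM in Abca3 cKO and 21.1 to 27.5 CPM in controls (adjusted p = 0.699), without overlap between groups, and 8% of the 50-base stretches of Cd55 occur in it. The antisense gene Gm16083 shares 2.1% of the exon bases of Cd55.

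Serping1 (chr2:84765387-84775444, minus strand) varied widely in Abca3 cKO and little in controls. Its levels were 588, 279 and 400 CPM in Abca3 cKO and 371, 321 and 309 CPM in controls. The highest and the lowest library were both Abca3 cKO, replicates 1 and 2. The log2 fold change of 0.34 (SE 0.237, edgeR adjusted p = 0.755) was 0.02 without Abca3 cKO replicate 1 and 0.56 without Abca3 cKO replicate 2.

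Cd59a (chr2:104095801-104115354, plus strand) stood at 41.7, 21.4 and 43.2 CPM in Abca3 cKO and at 73.3, 38.8 and 34.0 CPM in controls, with overlapping groups. Its log2 fold change was −0.46 (SE 0.389, edgeR adjusted p = 0.825), and −0.04 without control replicate 1, the highest library. Its copy Cd59b was scarce, at 1.09 to 4.14 CPM, and 3.87% of the 50-base stretches of Cd59a occur in it. Cfi (chr3:129835884-129875332, plus strand) had 13 to 88 counts per library, the highest and the lowest both in Abca3 cKO. Its log2 fold change of 0.55 had an SE of 0.676 (edgeR adjusted p = 0.885) and was −0.52 without Abca3 cKO replicate 1, so no direction could be given at this depth.

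**Figure D2:**
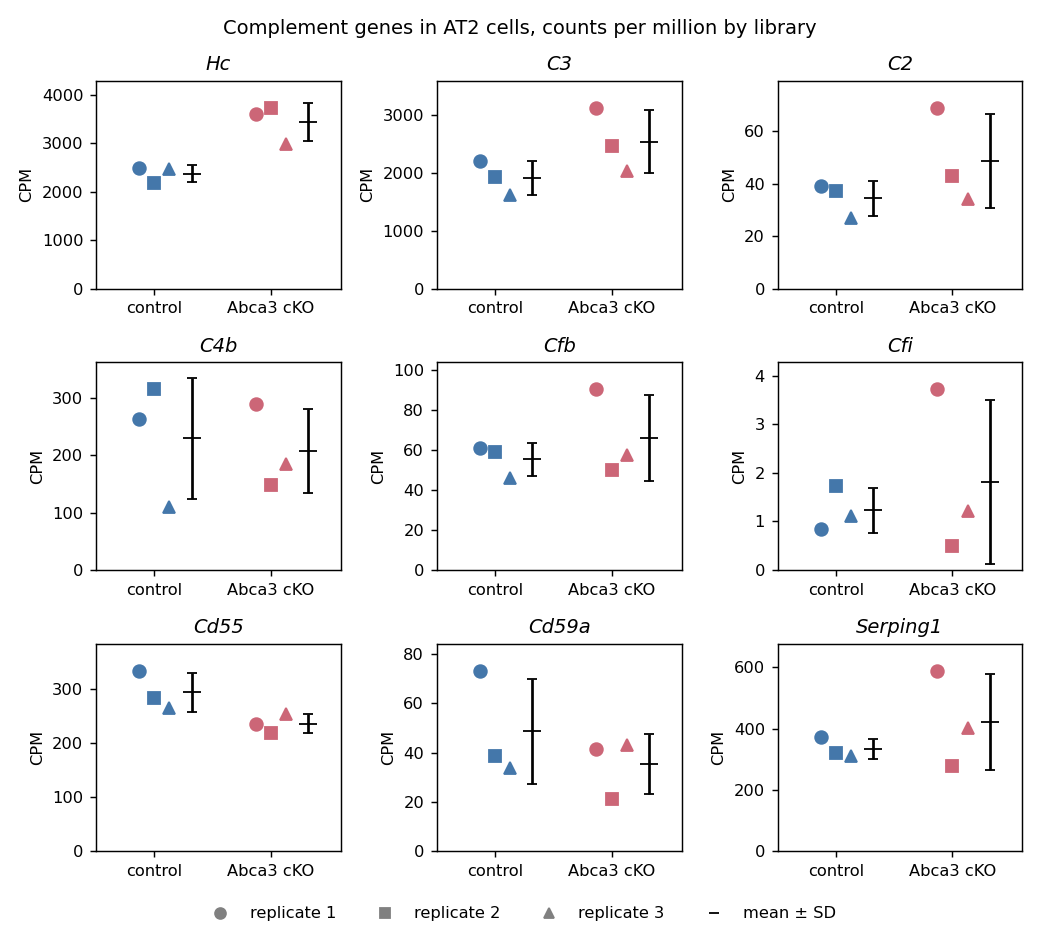
CPM (linear axes from 0) of the 9 complement genes in each library, with the replicate shown by symbol and the group mean ± SD in black (n = 3). Groups do not overlap for Hc, at 2992 CPM or more in Abca3 cKO and 2491 CPM or less in controls, nor for Cd55, at 254 CPM or less in Abca3 cKO and 264 CPM or more in controls.

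The genes differed widely in their spread between replicates. The within-group SD of log2 CPM was 0.14 for Hc and for Cd55, which placed them in the lower part of all genes tested (percentiles 20.4 and 21.1). It was 0.27 for C3, 0.35 for Cfb, 0.39 for Serping1 and 0.42 for C2. The largest were 0.58 for Cd59a, 0.67 for C4b and 1.02 for Cfi (percentiles 84.2, 87.7 and 95.2). The libraries at the extremes differed between genes: Cd59a was highest in control replicate 1 and lowest in Abca3 cKO replicate 2, and C4b highest in control replicate 2 and lowest in control replicate 3. Abca3 cKO replicate 1 was the highest of the 6 for 5 of the 9 genes (C3, C2, Cfb, Cfi and Serping1), as it was for 18.6% of all genes tested.

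Sums of the markers of mesothelial cells, fibroblasts and club cells were also highest in that library. For club cells this was a near tie with control replicate 2. Scgb1a1 (75051 against 74981 CPM) and Cyp2f2 (6004 against 5989 CPM) were slightly higher in control replicate 2 than in Abca3 cKO replicate 1. Cldn10 was highest in control replicate 3, and Scgb3a1 and Scgb3a2 in Abca3 cKO replicate 1. The fibroblast marker Lum was highest in control replicate 1. The 4 mesothelial markers summed to 587 CPM in Abca3 cKO replicate 1 and to 262 to 332 CPM in the other libraries, with Upk3b the most abundant. The 7 fibroblast markers summed to 1012 to 1538 CPM in Abca3 cKO, highest in replicate 1, against 727 to 994 CPM in controls. All 7 had a positive log2 fold change, beside 7277 of all 14477 genes tested. Of the 7, 5 had an unadjusted p under 0.05 by edgeR, beside 5.07% of all genes in that direction. None of the 7 passed the adjusted threshold of edgeR. Dcn, a matrix proteoglycan gene, was the most abundant of them. The club cell sum was 82666, 65242 and 52407 CPM in Abca3 cKO replicates 1, 2 and 3, in the same order as C3. In control replicates 1, 2 and 3 it was 74140, 81788 and 63439 CPM. There the order differed, with the club cell sum highest in replicate 2 and C3 highest in replicate 1. The part of these cells in the levels of C3, C2, Cfb and Serping1 was not tested. In bulk RNA of purified cells a change in the share of a cell type cannot be told apart from a change in RNA per cell.

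Markers of leukocytes, endothelium and liver were low. Macrophage markers summed to 56.6 to 72.7 CPM in Abca3 cKO and 78.3 to 89.6 CPM in controls. Marco, Siglec5 (the older symbol of Siglecf in the table) and Ear2 stood at 0 CPM in each Abca3 cKO library. In control replicates 1 and 3, Siglec5 and Ear2 were at 0 CPM too, and Marco was at 0.0845 and 0.0793 CPM. Of the 4 macrophage markers tested, 1 (Mertk) had a positive log2 fold change, of 0.29. Control replicate 2, which stood apart in Xist, was also the highest for Chil3 (16.9 CPM against 0.380 to 5.37 CPM elsewhere), Mrc1 (3.01 against 0.198 to 0.856 CPM) and Marco (0.811 CPM). The log2 fold change without that library was 0.47 for Hc, 0.41 for C3 and −0.34 for Cd55. The highest of that list was Csf1r. Hepatocyte markers, given because liver is the main source of complement, summed to 36.4 CPM in Abca3 cKO replicate 2, mostly Alb, and to 0.929 to 6.56 CPM elsewhere. Hc stood at 3720 CPM in that library, and its log2 fold change without it was 0.47. The AT2 list had 8 of 10 genes with a positive log2 fold change, beside 7277 of all 14477 genes tested. Of the 10 genes, 6 had an unadjusted p under 0.05 by edgeR, beside 9.23% of all genes in either direction. Among the 10, 1 was called (Napsa, a protease of surfactant processing), beside 0.38% of all genes. Sftpc (log2 fold change −0.36, edgeR adjusted p = 0.479) and Abca3 (−0.17) went the other way. The AT2 list summed to 73677 to 85310 CPM in Abca3 cKO against 65673 to 76984 CPM in controls. Its part in the difference in Hc was not tested. AT1 markers summed to 1620 to 2263 CPM against 2148 to 2928 CPM, with Clic5 highest. None of the 7 AT1 markers had a positive log2 fold change, and none was called. At an unadjusted p under 0.05 edgeR gave 3 of them, beside 4.16% of all genes in that direction. Neutrophil markers stayed at 44.1 CPM or less (Cxcr2 highest), ciliated markers at 238 CPM or less (Tppp3 highest) and endothelial markers at 93.3 CPM or less, nearly all Kdr. T and B cell markers stayed at 1.66 CPM or less, with Cd79a highest.

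**Figure D3:**
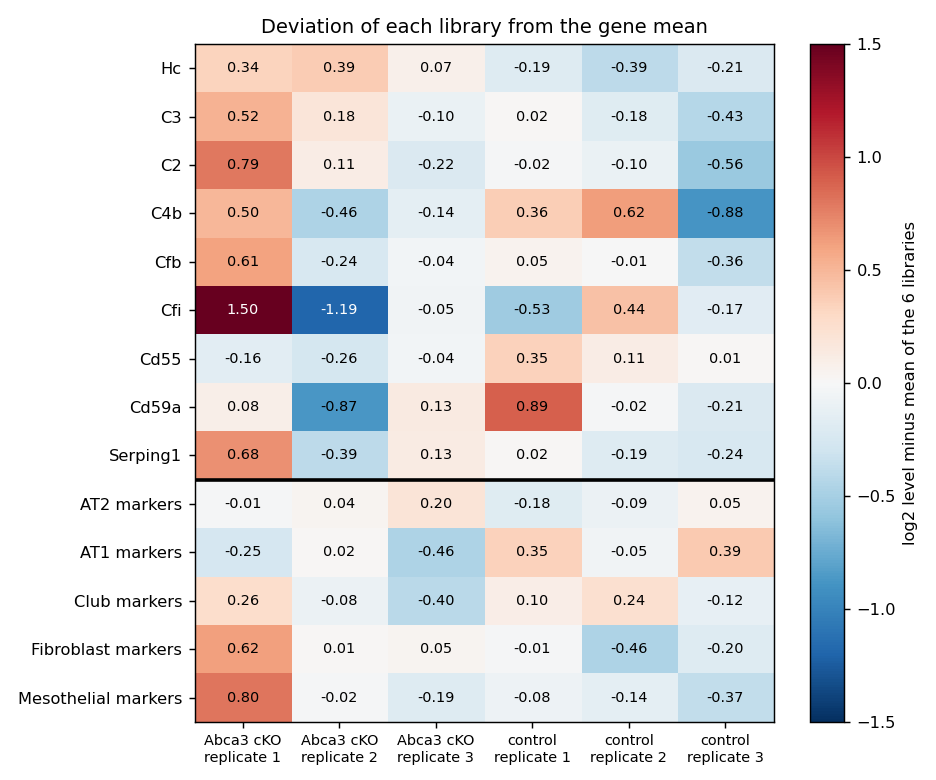
Log2 level of each complement gene, and of the summed markers of 5 cell types, in each library minus the mean of the 6 libraries. Abca3 cKO replicate 1 is high for C3, C2, Cfb, Cfi and Serping1 and for the club, fibroblast and mesothelial sums. The club sum is nearly as high in control replicate 2 (0.24 against 0.26). Hc is above its mean in all 3 Abca3 cKO libraries and Cd55 below its mean in them.

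Beyond the 9 genes, a list of 49 other complement genes was read in the same way. Of these 48 were in the table and 28 were tested. None passed edgeR's adjusted p of 0.05, nor that of DESeq2. At an unadjusted p under 0.05 edgeR gave 4, all higher in Abca3 cKO, beside 5.07% of all genes in that direction. They were C1s, C6, C5ar2 and Vtn, of which Vtn, with 0 to 34 counts per library, is named after its values were seen. In 18 of the 28 the log2 fold change was above 0, beside 7277 of all 14477 genes tested. By role these were 8 of 8 recognition genes and proteases, 3 of 4 components, 5 of 12 regulators and 2 of 4 receptors. The list's median of 0.27 became 0.07 without Abca3 cKO replicate 1.

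Of the classical route, genes of the proteases C1r and C1s were tested, while Masp1 and Masp2, proteases of the lectin route, had 0 to 9 and 3 to 19 counts and were not. C1s (C1s1 in newer tables), the protease that cuts C4 and C2, stood at 178, 130 and 92.0 CPM in Abca3 cKO and at 96.8, 81.5 and 102 CPM in controls (log2 fold change 0.51, edgeR adjusted p = 0.479). C1ra, which activates C1s, stood at 64.9, 33.8 and 37.2 CPM in Abca3 cKO and at 35.3, 38.5 and 28.7 CPM in controls (edgeR adjusted p = 0.660). Colec12, a membrane collectin, stood at 120, 92.2 and 89.5 CPM against 94.1, 76.4 and 91.4 CPM (edgeR adjusted p = 0.721). C1s, C1ra and Colec12 were each highest in Abca3 cKO replicate 1, and their groups overlapped. All 8 tested genes of this role had positive log2 fold changes, beside 7277 of all 14477 genes tested, and none of the 8 was called. C1qa and C1qc, subunits of the antibody-binding C1q made by macrophages, had 0 counts in every library, which allows up to 0.115 to 0.127 CPM per library, and C1qb had 0 to 5 counts.

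Of the 4 other components tested, C6 was the only one whose groups did not overlap (7.34% of all genes in that direction). It encodes a protein of the membrane attack complex and stood at 290, 301 and 293 CPM in Abca3 cKO and at 211, 195 and 258 CPM in controls (log2 fold change 0.41, SE 0.121, edgeR adjusted p = 0.223). C7, the next protein of that complex, stood at 150, 89.9 and 125 CPM against 95.2, 50.1 and 98.4 CPM (adjusted p = 0.651). C8a, C8b and C9, which complete the complex, had 0 counts in every library, and C8g had 2 to 29. The third component by level was C4a. Cfd, the protease that cuts factor B, had 0 to 15 counts.

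Among the other regulators, the surface protein Cr1l, a rodent protein that curbs C3 cleavage on cells, stood at 107 CPM against 129 CPM (log2 fold change −0.27, adjusted p = 0.544). Clu, the secreted chaperone clusterin that binds the membrane attack complex, stood at 118 CPM against 136 CPM (log2 fold change −0.20, adjusted p = 0.692).

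Receptors for the products of the cascade were scarce apart from C5ar2. This second receptor for the C5 fragment stood at 46.2, 58.2 and 62.0 CPM in Abca3 cKO and at 42.3, 38.1 and 47.7 CPM in controls (log2 fold change 0.38, SE 0.147, edgeR adjusted p = 0.411). The groups overlapped, since Abca3 cKO replicate 1 lay below control replicate 3. The main receptor gene for that fragment, C5ar1, had 0 to 14 counts, and C3ar1 and Cr2 stayed at 1.47 CPM or less.

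**Figure D4:**
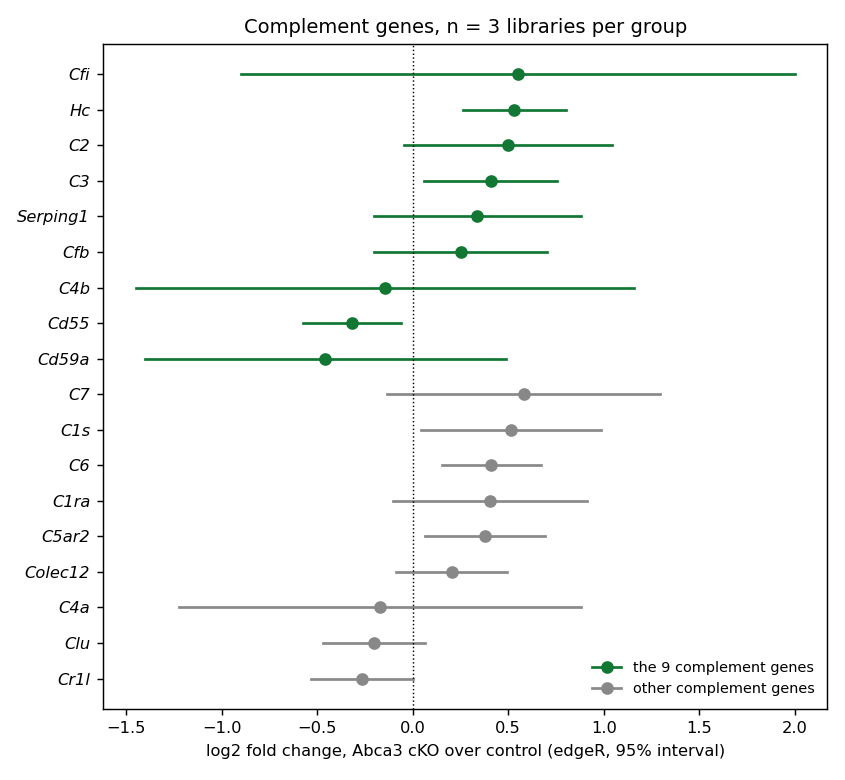
Log2 fold change of Abca3 cKO over control with its 95% interval by edgeR, for the 9 complement genes (green) and for those other complement genes described in the text that reached a control mean of 1 CPM and stood among the 3 most abundant of their role (grey). Among the 9, the intervals of Hc, C3 and Cd55 lie to one side of 0 before adjustment for the number of genes tested, and none passes after it.

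Genes whose pattern over the 6 libraries lay nearest to that of Hc were Myg1, Wdr46 and Slc35b1, at root mean square distances of 0.050, 0.056 and 0.080 in centred log2 CPM. Nearest to C3 were Adamts5, Rnd3 and Igfbp5, at 0.077, 0.077 and 0.079. None of these 6 genes was called by edgeR. Among the complement genes listed at the start, C3 was nearest to Hc, at 0.20, and C2 was nearest to C3, at 0.14. Cd55 lay at 0.46 from Hc. Genes of the wider complement list were not part of this ranking.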

How the data were processed

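The authors deposited whole-number read counts per gene, not normalized, and RPKM. Per the labels' protocols, RNA went through NuGEN Ovation v2 amplification and Nextera XT preparation, so counts are not single molecules and carry no strand. The submitters' processing notes list TopHat2 2.0.8, Bowtie2 2.1.0, DESeq, Cufflinks 2.0.2 and the build mm10 (GRCm38). Which program counted reads, and with which annotation, is not given in the sources used here. A deposited list of symbols without values was left out.

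Libraries held 23531330 to 26071229 counts. In R 4.3.3 with edgeR 4.0.16, counts were filtered by filterByExpr, scaled by TMM and compared by the quasi-likelihood F test (robust, two-sided, no covariates). Benjamini-Hochberg adjustment ran over 14477 genes, with calls under 0.05. SE is the log2 fold change over the square root of F. Alternatives used DESeq2 1.42.0, limma 3.58.1 on RPKM and the other settings given in the closing section. Levels between genes were compared by RPKM. Limits from a count of 0 (3 counts) cover counting error only. Log2 CPM used a prior count of 2. Coordinates and exon overlaps came from GENCODE M21 on GRCm38, promoters from RefSeq on GRCm38.p6.

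The named genes were the 9, the called genes and the 3 most abundant per role of the wider list (its older symbols C1s, Gm5077 and Daf2 matched through RefSeq), the 3 nearest patterns to Hc and to C3, and the most abundant markers per cell type. A result from the wider list is not reported here. The genes and lists were chosen with earlier results of these data known. Tested on simulated data for this comparison (14273 genes kept), it found 20% of the 50 genes given a 1.5-fold change, 78% at 2-fold, and 98% at 3-fold.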

Additional observations from a re-analysis of the deposited data

How the results depend on the processing

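Of the 9 complement genes, 1 (Hc) was called by DESeq2 and by edgeR without the filter on low counts, and 0 were called in the main analysis and the other 12 alternatives. The count over all genes was 55; it was 241 with DESeq2, 132 without the filter, 33 with the replicate number as a block, 22 and 21 with limma on RPKM (pseudocounts 0.1 and 1), 11 with limma without a filter, and 21 to 50 when 1 library was left out. The cause was not tested. The wider list gave 0 calls throughout. Pairing by replicate number is not stated in the labels. Same-numbered deviations correlated at 0.0762, −0.0304 and −0.0272 across genes, and not every library correlated best with its own number. With 3 libraries per group these values cannot decide whether the numbers pair libraries. The replicate block called none of the 9, as did the main analysis. It put 4 of them at an unadjusted p under 0.05 (edgeR), against 3 without it. With the block the SE was lower for some genes, such as C2 (0.154 against 0.245), and higher for others, such as Hc (0.143 against 0.126). Hc, C3, C2, Cd55, Cd59a and Serping1 kept their sign in all 14 alternatives. Without 1 library, C4b ran from −0.48 to 0.15 in log2 fold change, Cfb from −0.044 to 0.42 and Cfi from −0.52 to 0.99. By CPM per kb of exon, 7 of 9 genes kept their place in the order, with Hc above C3. At this size of study, 20% of simulated 1.5-fold changes were found, so most changes of that size would be missed.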
